A study of Mus musculus with 12 samples.

Results

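Endothelial genes are described here through 5 members, Vwf, Pecam1, Cdh5, Eng and Esam, which were taken by symbol from the 7318 genes of the deposited count table. The samples were mammary gland cells of 4-week-old female FVB/N mice that carried the transgenes MMTV-Wnt1 and MMTV-iFgfr1. MMTV is a viral promoter active mainly in the mammary epithelium, and iFGFR1 is an inducible FGF receptor that the compound AP20187 brings together and so activates. Mice received vehicle or AP20187 by intraperitoneal injection, and glands were taken 6 h later. All mice carried both transgenes, so vehicle mice had the WNT transgene too, and mice lacking iFGFR1 were not among those given AP20187. Each of the 4 groups, vehicle and AP20187 in RNA and in ribosome footprints, held 3 libraries. Whether a library stands for 1 mouse or a pool is not stated, so the p-values measure only the spread between these libraries, which may be technical.

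Endothelial cells line blood and lymph vessels and are held together by junctions that control what leaves the vessel. Their surface carries adhesion molecules and receptors for growth factors of the VEGF, angiopoietin and TGF-beta families, and they store clotting proteins in granules called Weibel-Palade bodies. In the mammary gland, capillaries run through the fat pad and around the ducts, so endothelial cells are part of the stroma and not of the epithelium in which MMTV is active.

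The cells were labelled as mammary epithelial cells and were enriched by short spins after collagenase digestion, with no sort given in the labels. Epithelial markers were present in every library, and the 7 measured luminal genes together stood at 4102 to 5115 CPM in vehicle RNA. CPM stands for counts per 1000000 of the library, after TMM scaling in edgeR. All 5 endothelial genes were also read in every library, with 3247 to 47552 counts per gene in RNA and 114 to 1430 in footprints. The 5 genes together made up 608 to 818 CPM of vehicle RNA. The identity of these transcripts as endothelial rests on few further markers, since of 10 other endothelial markers listed for comparison 1, Erg, was in the table and the other 9 were not analysed here. No gene of a lymphatic endothelial list was in the table, and 1 of 8 platelet and megakaryocyte markers was. That gene, the integrin Itgb3, had 20.8 ± 6.85 CPM in vehicle RNA and 17.8 ± 3.32 CPM after AP20187 (mean ± SD, n = 3).

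RNA libraries held 94513818 to 251874393 counts over the listed genes and footprint libraries 1772969 to 11018709. Between replicates, Pearson r over genes on the log2 scale was 0.959 to 0.987 in RNA and 0.875 to 0.968 in footprints, with genes not being independent points. The gene of the activated receptor, Fgfr1, rose in RNA from 325 ± 50.8 to 810 ± 267 CPM, and Wnt1 from 28.9 ± 16.98 to 221 ± 80.5 CPM (edgeR adjusted p = 0.0106 and 0.00791). Counts for both can hold transgene reads.

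In RNA all 5 endothelial genes were lower 6 h after AP20187, and in each of them the 3 AP20187 libraries lay below the 3 vehicle libraries. The fall ranged from a log2 fold change of -0.61 in Cdh5 to -1.84 in Vwf, with a median of -0.79, against a median of 0.01 over all 7314 genes tested. All 5 passed an adjusted p of 0.05 in edgeR's quasi-likelihood test, where 13.9% of all tested genes were called lower and 12.4% higher. In 23.1% of the tested genes every AP20187 library lay below every vehicle library. The genes were proposed with results of these data known, so their joint fall is a description. CPM is a share of the library. In bulk samples such as these, fewer endothelial cells, less RNA per endothelial cell and more RNA from other cells cannot be told apart.

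**Figure D1:**
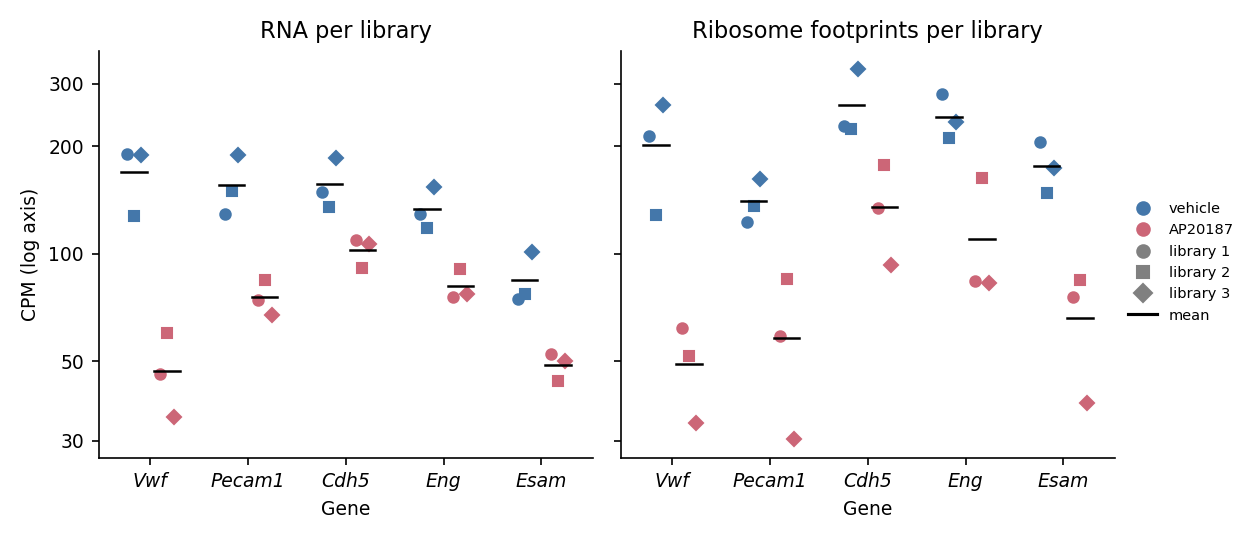
CPM on a log axis for each of the 5 endothelial genes in RNA (left) and ribosome footprints (right), with vehicle in blue, AP20187 in red, the marker shape giving the library number and black bars the group means. All AP20187 points lie below all vehicle points of the same gene, with the widest distance in Vwf.

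Vwf encodes von Willebrand factor, the large glycoprotein that tethers platelets to injured vessel walls, carries coagulation factor VIII and is stored in Weibel-Palade bodies. The gene (ENSMUSG00000001930.17) lies on chromosome 6 at 125546774 to 125686679 on the plus strand of GRCm38. Its RNA stood at 191, 127 and 189 CPM in vehicle libraries 1, 2 and 3 and at 46.1, 60.3 and 34.9 CPM in the AP20187 libraries. The highest AP20187 library, number 2, was still 2.11-fold below the lowest vehicle library, also number 2. The log2 fold change was -1.84 ± 0.24 (SE, 95% interval -2.39 to -1.30, edgeR adjusted p = 0.0059), which leaves 27.8% of the vehicle level. Of all tested genes 1.87% had a more negative change.

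Pecam1 (CD31) is a homophilic adhesion receptor of the immunoglobulin superfamily at endothelial cell borders, and it is also found on platelets and leukocytes. It lies on chromosome 11 at 106654217 to 106750628 on the minus strand. Vehicle RNA libraries held 129, 150.2 and 189 CPM and AP20187 libraries 74.6, 84.7 and 67.7 CPM. The change was -1.05 ± 0.17 (interval -1.44 to -0.66, edgeR adjusted p = 0.00766), which leaves 48.4%. The AP20187 libraries differed little from each other (coefficient of variation 11.3%), and the spread was larger among vehicle libraries (19.4%).

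Cdh5, VE-cadherin, is the cadherin of endothelial adherens junctions and is largely restricted to endothelium. It lies on chromosome 8 at 104101625 to 104144511 on the plus strand. Its RNA was read at 149, 136 and 185 CPM with vehicle and at 109.5, 91.3 and 106.5 CPM with AP20187, and the nearest libraries of both groups were 1.24-fold apart. The change of -0.61 ± 0.15 (interval -0.96 to -0.26, edgeR adjusted p = 0.0244) was the smallest of the 5 and leaves 65.4%. The call was lost without vehicle library 1 (adjusted p = 0.0669), vehicle library 3 (0.1) or AP20187 library 1 (0.062).

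Eng, endoglin, is an accessory receptor for ligands of the TGF-beta family, including BMP9, on endothelial cells, and it also occurs on activated macrophages and stromal cells. It lies on chromosome 2 at 32646595 to 32682669 on the plus strand. Its RNA stood at 129.7, 118 and 154 CPM with vehicle and at 75.8, 90.6 and 77.0 CPM with AP20187. The change was -0.72 ± 0.15 (interval -1.06 to -0.39, edgeR adjusted p = 0.0131), which leaves 60.6%. The adjusted p was 0.0594 without vehicle library 3 and 0.0531 without AP20187 library 1. An exon of Eng shares 61 bases with an exon of Fpgs on the other strand, and the strand setting of the counting is unknown here. Fpgs RNA went from 31.1 ± 6.96 to 58.2 ± 11.1 CPM, in the opposite direction to Eng.

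The promoter of Eng is shown because it is the only 1 of the 5 with an entry in the RefSeq promoter table of build GRCm38.p6, and because ETS factors, the family to which Erg belongs, are known regulators of endothelial genes. The 250 bases before the start, chr2:32646345-32646594 on the plus strand, are given 5′ to 3′ with matches to the ETS-type sequence AGGAAG on either strand in capitals.
Eng: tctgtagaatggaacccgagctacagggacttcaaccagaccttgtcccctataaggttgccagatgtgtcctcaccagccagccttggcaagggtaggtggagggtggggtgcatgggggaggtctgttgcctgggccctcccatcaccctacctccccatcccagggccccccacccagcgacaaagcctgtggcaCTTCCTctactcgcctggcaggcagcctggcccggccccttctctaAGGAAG
The 2 matches begin at positions -52 (minus strand) and -6 (plus strand) from the start. A match to AGGAAG was found in 35.35% of 32851 promoter windows, each reaching from 250 bases before to 50 after a start. The Eng window also held 4 matches to CACCC (57.5% of windows held any) and 1 to CANNTG (72.3%), none overlapping the ETS-type matches. The sequence AGATAA, bound by blood and vessel zinc finger factors, was absent from it and present in 11.2% of windows. The forkhead-type sequence TGTTTAC, found in 3.65% of windows, had no match either. For the AP-1-type sequence TGANTCA, also without a match, the share of windows was 7.81%. Neither GGCGCC, the core of SMAD1-type sites and held by 11.9% of windows, nor the promoter element written TATAAA, held by 13.6%, was found. Both strands were searched, and these matches describe letters and not bound sites.

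Esam is a junctional adhesion molecule of endothelial tight junctions, also found on platelets. It lies on chromosome 9 at 37528078 to 37538319 on the plus strand. Vehicle RNA libraries held 74.8, 77.1 and 101 CPM and AP20187 libraries 52.4, 44.0 and 50.03 CPM. The change was -0.79 ± 0.16 (interval -1.16 to -0.42, edgeR adjusted p = 0.013), which leaves 57.8%. Without vehicle library 3 the adjusted p was 0.0531. That library held the highest Pecam1, Cdh5, Eng and Esam levels in RNA, and without it Vwf and Pecam1 alone passed among the 5.

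The distance between the groups varied with the libraries compared. At numbers 1, 2 and 3, which showed no pairing of RNA libraries, the log2 differences were -2.05, -1.08 and -2.44 in Vwf and -0.44, -0.57 and -0.80 in Cdh5. In each of the 5 genes the difference was largest at number 3.

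In RNA Vwf fell further than the other 4 genes. The log2 ratio of Vwf to Cdh5 in RNA was 0.36, -0.09 and 0.03 in the vehicle libraries and -1.25, -0.60 and -1.61 in the AP20187 libraries, so the groups did not overlap. The same held for the ratios of Vwf to Pecam1, Eng and Esam, whose means fell by 0.82, 1.14 and 1.07. In footprints the ratio of Vwf to Cdh5 did not overlap between groups (means -0.41 and -1.45), whereas those to Pecam1, Eng and Esam did. With 3 libraries against 3 an exact two-sided permutation test cannot go below p = 0.1, so no such ratio can pass a threshold of 0.05. Of the 6 RNA ratios without Vwf, those of Pecam1 to Eng (mean change -0.32) and Cdh5 to Esam (0.18) did not overlap and the other 4 did. The share of all gene pairs whose ratios do not overlap between groups was not computed, so these counts have no background to be set against. The ratio of Eng to Esam was 0.79, 0.61 and 0.60 with vehicle and 0.53, 1.04 and 0.62 with AP20187.

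Levels between genes were compared per kilobase (kb) of exon, using the merged exons of the GENCODE annotation. In vehicle RNA the order was Esam at 45.3 ± 7.9, Cdh5 at 39.2 ± 6.41, Pecam1 at 37.8 ± 7.34, Eng at 37.5 ± 5.09 and Vwf at 17.3 ± 3.7 CPM per kb (mean ± SD, n = 3). The ranges of the first 4 overlapped, while Vwf, with at most 19.5, stood below the lowest library of any other member, at 31.3. With AP20187 the order was Esam at 26.2 ± 2.33, Cdh5 at 25.6 ± 2.45, Eng at 22.7 ± 2.29, Pecam1 at 18.3 ± 2.07 and Vwf at 4.81 ± 1.3 CPM per kb. Here Esam, Cdh5 and Eng overlapped, Pecam1 lay below them with a highest library of 20.5 against a lowest of 21.2 in Eng, and Vwf remained the lowest. Among 7122 genes with a length, the vehicle RNA levels ranked from the 46.3rd percentile (Vwf) to the 77.7th (Esam), and the AP20187 levels from the 14.6th to the 59.8th.

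Ribosome footprints are the fragments that ribosomes protect, so their counts reflect how many ribosomes sit on the messages of each gene. Footprints of all 5 endothelial genes were lower after AP20187, again with no overlap between the groups, which 11.8% of 7041 tested genes showed. The log2 fold changes ranged from -0.95 to -2.03 with a median of -1.27, against 0.03 over all genes. By edgeR's test 2 of the 5 passed, Vwf and Esam, where 1.6% of all tested genes were called lower and 2.54% in either direction. All 5 had an unadjusted p under 0.05, which 8.68% of genes reached in this direction.

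Vwf footprints stood at 215, 129 and 262 CPM with vehicle and at 61.9, 51.8 and 33.7 CPM with AP20187. The change was -2.03 ± 0.34 (interval -2.78 to -1.29, edgeR adjusted p = 0.0202), which leaves 24.4%. Esam footprints stood at 206, 148 and 174 CPM with vehicle and at 75.7, 84.4 and 38.2 CPM with AP20187. The change was -1.41 ± 0.32 (interval -2.12 to -0.70, edgeR adjusted p = 0.0464), which leaves 37.6%. In both genes library 3 was the lowest of the AP20187 group.

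Pecam1 footprints were 123, 136 and 162 CPM with vehicle and 58.9, 85.3 and 30.3 CPM with AP20187, a change of -1.27 ± 0.35 (edgeR adjusted p = 0.0884). Eng footprints were 280.3, 212 and 234 CPM with vehicle and 84.0, 163 and 82.8 CPM with AP20187, a change of -1.14 ± 0.31 (edgeR adjusted p = 0.0864). Cdh5 footprints were 229, 224 and 329 CPM with vehicle and 134, 178 and 92.9 CPM with AP20187, a change of -0.95 ± 0.30 (edgeR adjusted p = 0.131). In these 3 genes AP20187 library 2 was the highest of its group. Same-numbered footprint libraries tended to deviate together, though 3 libraries a group cannot settle whether the number pairs them. With the replicate number as a block all 5 genes passed. Over all 7041 tested genes the block called 715 in either direction, against 179 without it. The edgeR adjusted p-values with the block were 0.000659 for Vwf, 0.00253 for Esam, 0.00906 for Pecam1, 0.0079 for Eng and 0.0285 for Cdh5. Without the block, 0 of 5 passed when vehicle library 1, 2 or 3 or AP20187 library 1 was left out, where the log2 change was -1.80 to -2.27 in Vwf and -1.28 to -1.52 in Esam. Over all genes 0 to 3 were called in these 4 cases. Without AP20187 library 3 the count was 1 of 5, and without AP20187 library 2 it was 4. With library totals only, 1 passed, and with DESeq2, which also called more genes over all, 5.

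Per kb of coding sequence, vehicle footprints were highest for Esam at 149 ± 24.6, followed by Eng at 118 ± 17.1, Cdh5 at 111 ± 25.2, Pecam1 at 63.1 ± 9.0 and Vwf at 23.6 ± 7.91 CPM per kb (mean ± SD, n = 3). The first 3 overlapped with their neighbours, whereas Pecam1 and Vwf each stood apart. With AP20187, Cdh5 at 57.4 ± 18.1, Esam at 55.9 ± 20.7 and Eng at 53.8 ± 22.5 CPM per kb overlapped. Their means lay above those of Pecam1 at 26.2 ± 12.4 and Vwf at 5.75 ± 1.67 CPM per kb. The ranges of Pecam1 (13.6 to 38.4) and Esam (32.3 to 71.4) overlapped, while that of Vwf lay apart from all others.

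Translational efficiency is the ratio of footprints to RNA, and its change was taken from an assay-by-treatment term fitted to all 12 libraries. None of the 5 genes passed. The log2 changes were -0.24 ± 0.42 in Vwf (95% interval -1.15 to 0.67), -0.29 ± 0.40 in Pecam1 (-1.16 to 0.58), -0.40 ± 0.34 in Cdh5 (-1.14 to 0.34), -0.47 ± 0.35 in Eng (-1.23 to 0.28) and -0.68 ± 0.36 in Esam (-1.46 to 0.10). EdgeR's adjusted p-values were 0.988 to 0.991, 0 of 5 had an unadjusted p under 0.05 (2.13% of genes did so with a lower value), and 0 passed with DESeq2 or limma voom. Over all 7315 genes 0% were called, and the median change was -0.08. The intervals include 0 and also falls of more than 1 on the log2 scale, so a change in the ratio was not detectable at this depth.

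**Figure D2:**
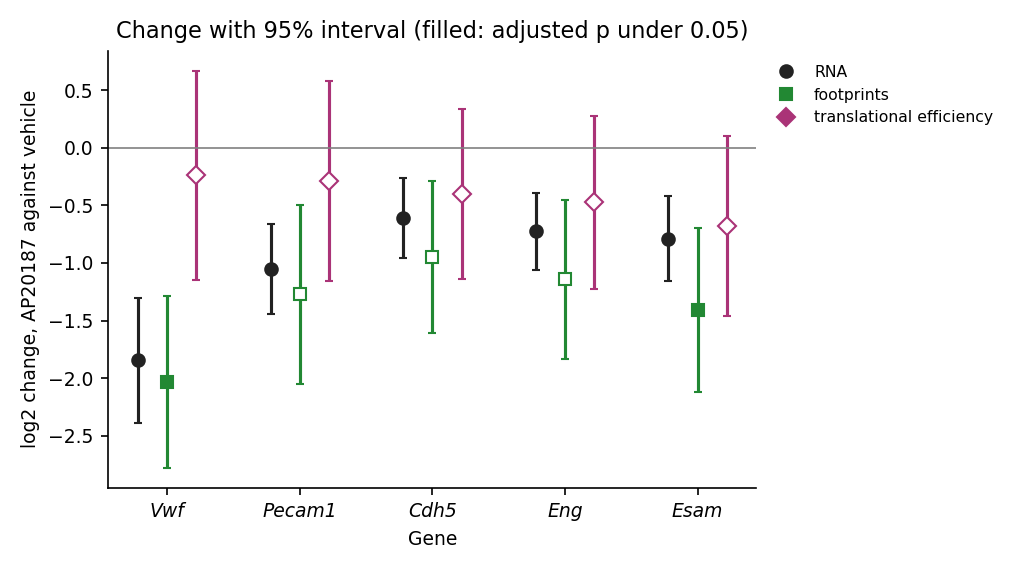
Log2 change of AP20187 against vehicle for each of the 5 genes in RNA (circles), footprints (squares) and translational efficiency (diamonds), with 95% intervals from edgeR and filled markers where the adjusted p was under 0.05. All RNA and footprint intervals lie below 0, and all translational efficiency intervals cross 0.

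RNA and footprint libraries of the same treatment and number were taken as 1 cell pellet, a match that rests on the protocol's wording. Within a pellet so matched, the log2 ratio of footprint CPM to RNA CPM placed the 5 genes differently. Esam averaged 1.06 ± 0.36, Eng 0.85 ± 0.25 and Cdh5 0.72 ± 0.11 with vehicle (mean ± SD, n = 3), against a median of -0.11 over 7041 genes. Vwf averaged 0.22 ± 0.23 and Pecam1 -0.15 ± 0.07. These are the 85.6th, 81.3rd, 77.9th, 62.2nd and 49.1st percentiles in that order. The region in which footprints were counted is unknown here, so the values only rank genes within these counts.

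With AP20187 the ratios were spread more widely between pellets. Esam was at 1.46, 0.94 and 0.77 in vehicle pellets 1, 2 and 3 and at 0.53, 0.93 and -0.38 in AP20187 pellets. Pecam1 was at -0.08, -0.14 and -0.22 with vehicle and at -0.34, 0.01 and -1.15 with AP20187. Cdh5 went from 0.62, 0.72 and 0.83 to 0.29, 0.96 and -0.20, and Eng from 1.11, 0.84 and 0.61 to 0.15, 0.85 and 0.10. AP20187 pellet 2 lay within the vehicle range or above it in Pecam1, Cdh5 and Eng, and pellet 3 lay below the vehicle range in all 5 genes. In Esam pellet 2 also lay within that range, and in Vwf it lay below it.

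**Figure D3:**
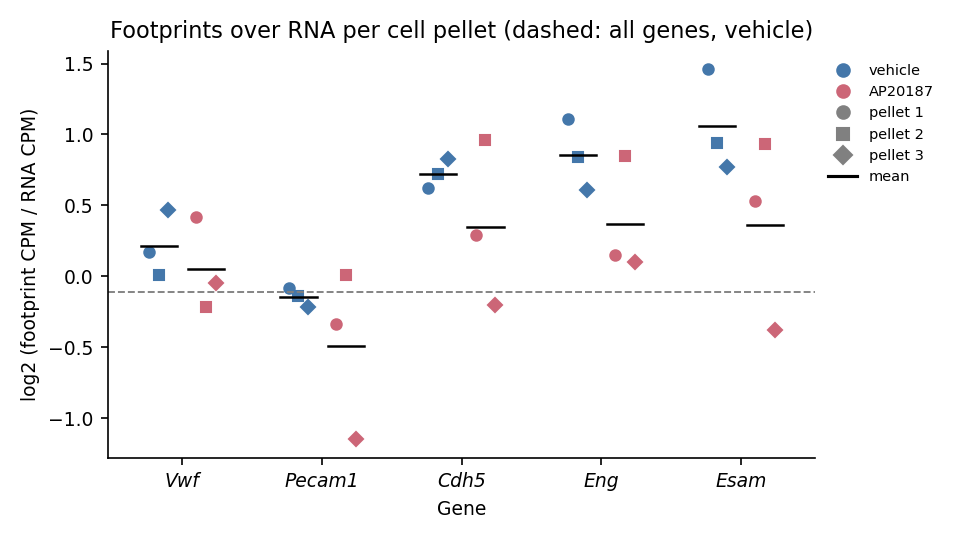
Log2 ratio of footprint CPM to RNA CPM for the 5 genes in each cell pellet, taken as the libraries of the same treatment and number. Vehicle is in blue and AP20187 in red, with the marker shape giving the pellet number and black bars the means. A dashed line marks the median over all genes in vehicle pellets (-0.11). AP20187 pellet 3 lies below all vehicle pellets in each of the 5 genes.

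Other genes with known roles in vessels went in both directions in RNA, though more were lower. Of 25 measured members of a list of 49 vascular genes 13 fell and 2 rose, with a median log2 fold change of -0.63, against 13.9% and 12.4% of all tested genes. The count of falls was 4 without vehicle library 3, 6 without AP20187 library 1 and 8 without vehicle library 1. Erg, an ETS transcription factor of endothelial cells, went from 36.5 ± 8.77 to 13.3 ± 1.68 CPM, a change of -1.46 ± 0.21 (edgeR adjusted p = 0.00678). Ptprb, the VE-cadherin-associated phosphatase VE-PTP, went from 119 ± 32.4 to 42.6 ± 9.79 CPM, by -1.49 ± 0.25 (edgeR adjusted p = 0.00801, a gene chosen after its values were seen). Genes of the vascular list that were not called included Nos3 at -0.18, Cd34 at -0.41, Podxl at 0.13 and Plxnd1 at -0.01. Their edgeR adjusted p-values were 0.573, 0.159, 0.745 and 0.956, and these genes too were named after their values were seen. In footprints the changes were -2.02 in Erg and -1.53 in Ptprb, with edgeR adjusted p-values of 0.0559 and 0.0653. Both passed with the replicate number as a block (0.0116 and 0.00831) and with DESeq2 (0.00239 and 0.00539).

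The 5 most abundant members of the vascular list were the basement membrane genes Col4a2 at -0.51 and Hspg2 at -0.74, the matricellular gene Sparcl1 at -0.63, the trafficking gene Ehd4 at 0.19 and Crip2 at 0.08. Of these Col4a2 and Sparcl1 passed (edgeR adjusted p = 0.0468 and 0.0362). Both calls were lost without vehicle library 1 (0.183 and 0.0635), vehicle library 3 (0.145 and 0.125), AP20187 library 1 (0.127 and 0.0932) or AP20187 library 3 (0.136 and 0.0859). Both genes that rose lie outside the rule for named genes. They were Slco2a1, a prostaglandin transporter, at 0.88 ± 0.13 and the laminin chain Lama4 at 0.50 ± 0.15, the latter not past the threshold without any single RNA library other than AP20187 library 2 (adjusted p up to 0.114). In footprints Slco2a1 was at 1.22 ± 0.35 and Lama4, opposite to its RNA, at -0.82 ± 0.26 (edgeR adjusted p = 0.0951 and 0.143).

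Partners of the members gave smaller groups, since the table holds few of them. For the haemostasis pathway of Vwf, 3 of 7 measured genes fell and none rose, against 13.9% and 12.4% of all tested genes. Selp, P-selectin, which lies in Weibel-Palade bodies beside von Willebrand factor, went from 718 ± 276 to 212 ± 38.9 CPM, by -1.76 ± 0.28 (edgeR adjusted p = 0.00755). Procr, which encodes the endothelial receptor for protein C, went from 215 ± 79.5 to 56.7 ± 7.16 CPM, by -1.92 ± 0.25 (edgeR adjusted p = 0.0059). Which cells in these epithelium-labelled samples gave the Selp and Procr reads was not tested. Both also fell in footprints, with log2 changes of -2.19 in Selp and -2.25 in Procr (edgeR adjusted p = 0.0202 and 0.0193). Both footprint calls were lost without vehicle library 1, 2 or 3 or AP20187 library 1 (adjusted p = 0.0525 to 0.064), with log2 changes of -1.72 to -2.43 there. The third was the annexin gene Anxa2 at -0.56 (edgeR adjusted p = 0.0365), whose call was lost without any single RNA library other than AP20187 library 3 (up to 0.145).

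Among 10 cadherin and catenin genes 5 fell and 1 rose, against 13.9% and 12.4% of all tested genes, so the single rise is at the share over all genes. It was that of Cdh1, the epithelial cadherin, at 0.61, and the falls included the cadherins Cdh2 at -1.86 and Cdh13 at -0.99 (both cadherins named after their values were seen) and Ptprb. The cytoplasmic linker gene Vcl fell by 1.24 ± 0.22 (edgeR adjusted p = 0.00882), and the catenin Ctnnb1 changed by -0.50 ± 0.14 (edgeR adjusted p = 0.0352). The count of falls was 3 without vehicle library 1, vehicle library 3 or AP20187 library 1, and Ctnnb1 did not pass without these (up to 0.14) or without AP20187 library 3 (0.101). Cdh1 did not pass without any single RNA library other than AP20187 library 3 (adjusted p up to 0.135). Vcl, Ctnnb1 and Cdh1 are also expressed in epithelium.

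Of 8 relatives and partners of Esam in tight junctions 4 fell, where 13.9% of all tested genes were called lower. Among them was Cxadr, a receptor of the same adhesion family, which fell by 0.97 ± 0.17 (edgeR adjusted p = 0.0086). The other falls were those of the scaffold gene Tjp1 at -0.63, of Ocln (occludin) at -0.43 and of the adhesion gene Jam3 at -1.27, Jam3 being named after its values were seen. Which cells in these epithelium-labelled samples gave the tight junction transcripts was not tested. Without vehicle library 3 the count was 1, and without vehicle library 1 or AP20187 library 1 it was 2. In the endoglin pathway 1 of 4 measured genes fell, a count near the 13.9% of all genes, the shared mediator Smad4 at -0.66 ± 0.15 (edgeR adjusted p = 0.0168). Smad4 did not pass without vehicle library 1 (0.0664) or vehicle library 3 (0.0748).

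Of 3 genes of VEGF and angiopoietin signalling 2 were called lower, against 13.9% of all tested genes. They were the hypoxia factor Epas1 at -0.67 and the co-receptor Nrp1 at -0.71. Of these, 0 were called without vehicle library 1, vehicle library 3, AP20187 library 1 or AP20187 library 3. Only 1, Epas1, was called without vehicle library 2. Of 5 endothelial transcription factors 2 fell, Erg and Tcf4, and 1 rose, Foxc1, against 13.9% and 12.4% of all tested genes. The call of Tcf4 ended without any single RNA library other than vehicle library 2 and that of Foxc1 without any other than AP20187 library 3 (adjusted p up to 0.172 and 0.137). Klf4, the most abundant of the 5 at 1176 ± 303 CPM in vehicle RNA, was at -0.14, and its cell source was not tested. Of the 2 measured genes of the Notch list, Notch1 and Rbpj, 0 passed with edgeR, DESeq2 or limma voom. Neither had an unadjusted p under 0.05, and 1 passed without AP20187 library 2. The receptor gene Notch3 was listed with the pericyte genes instead. It was at -0.59 (edgeR unadjusted p = 0.017, adjusted p = 0.0588) and passed with DESeq2 (adjusted p = 0.026).

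Markers of other cell types moved in the same libraries, and their part in the endothelial fall was not tested. For the counts in all marker lists that follow, 13.9% of all tested genes were called lower in RNA and 12.4% higher. The 5 endothelial genes together fell from 608 to 818 CPM with vehicle to 336 to 371 CPM with AP20187, which is 50.7% of the vehicle mean. The 6 measured of 8 fibroblast genes went from 3171 to 5815 to 1141 to 1656 CPM (32.3%), and 5 of them fell, among them Col1a1 at -1.51 and Dcn at -2.59. The 4 measured of 6 adipocyte genes went from 259 to 496 to 47 to 101 CPM (20.2%), and 3 fell, among them Fabp4 at -2.47 and Cd36, which endothelial cells also express, at -2.06. The defining adipocyte gene Adipoq averaged 1.34 ± 0.816 CPM in vehicle RNA and 0.332 ± 0.212 CPM after AP20187, and no measured marker of these lists was at 0 in all libraries of a group.

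The 7 measured of 10 pericyte and vessel muscle genes went from 1646 to 2154 to 776 to 1248 CPM (54.3%), and 3 fell, Des (named after its values were seen) at -1.60, Myh11 at -1.68 and Acta2 at -1.09, of which Myh11 and Acta2 are also expressed in myoepithelial cells. The pericyte receptor genes Pdgfrb and Notch3 were at -0.66 and -0.59 (edgeR adjusted p = 0.0588 for both). Pdgfrb passed with DESeq2 (adjusted p = 0.0221) and limma voom (0.0449), and Notch3 with DESeq2 (0.026). The call of Acta2 (adjusted p = 0.0332) was lost without each single RNA library other than AP20187 library 2 (up to 0.106), and without that library 5 pericyte and vessel muscle genes fell and 1, Mcam, rose. With all libraries Mcam was at 0.58 ± 0.25 (edgeR adjusted p = 0.124).

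The 5 measured of 8 leukocyte genes went from 611 to 1196 up to 1349 to 1653 CPM, and 2 rose, Cd14 at 1.42 and Itgam at 1.01. Cd14 alone went from 464 ± 245 to 1242 ± 172 CPM, while the median change of the 5 genes was -0.34. Cd68 and Cd74 were at -0.41 and -0.34 (edgeR adjusted p = 0.159 and 0.375). Ptprc, the pan-leukocyte gene CD45, was at -0.96 ± 0.38 (edgeR adjusted p = 0.0957, 0.0305 without vehicle library 1 and 0.0258 with DESeq2). Both rises ended without vehicle library 1, vehicle library 3 or AP20187 library 1. Of the 7 luminal genes 6 rose and 1, Krt19, fell, and without vehicle library 3 the rises numbered 2. Their sum went up to 6966 to 9356 CPM with AP20187, and Epcam and Krt8 rose by 1.03 and 1.15 on the log2 scale (the call of Krt8 ended without vehicle library 3, adjusted p = 0.0595). Of 6 basal, or myoepithelial, genes Krt14 fell by 1.08 and Krt17 rose by 0.89, counts near the 13.9% and 12.4% of all tested genes. No basal gene rose without vehicle library 1 or 3.

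**Figure D4:**
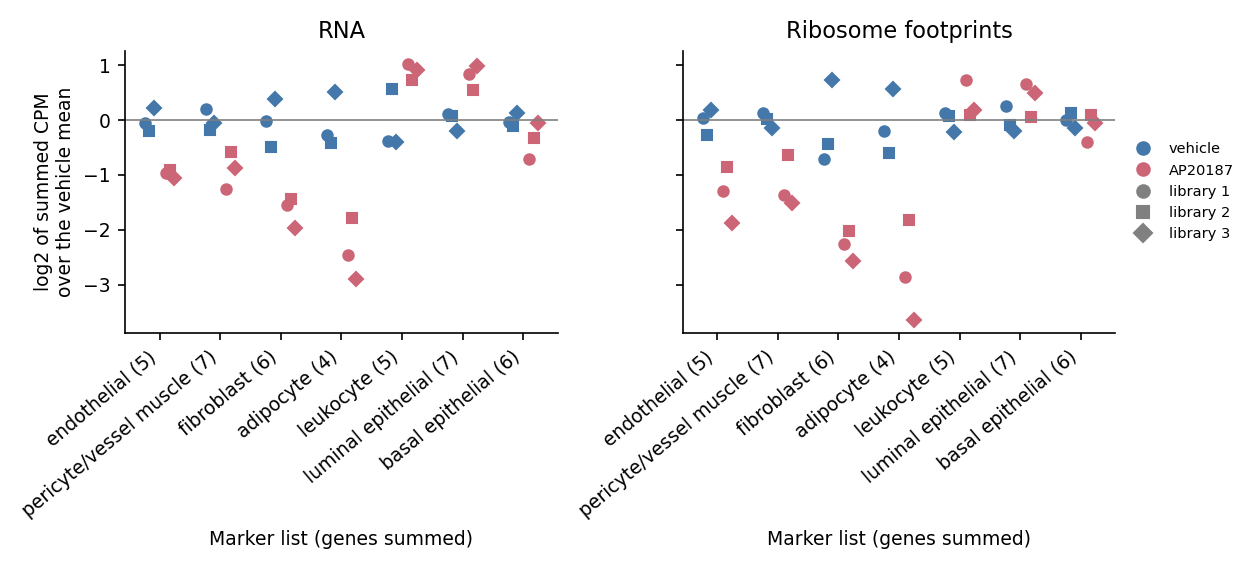
Log2 of the summed CPM of each marker list over its mean in the vehicle libraries, in RNA (left) and footprints (right), with the number of genes summed in parentheses, vehicle in blue, AP20187 in red and the marker shape giving the library number. In RNA the endothelial sums of the AP20187 libraries lie below 0 by less than those of the fibroblast and adipocyte lists and within the range of the pericyte and vessel muscle list, and in footprints endothelial library 3 lies below adipocyte library 2.

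The endothelial sum was set against the fibroblast, adipocyte, pericyte and vessel muscle, luminal and leukocyte sums in every library. Relative to fibroblast genes its log2 ratio in RNA was -2.72, -2.38 and -2.83 with vehicle and -2.10, -2.16 and -1.76 with AP20187, so the groups did not overlap and the ratio was higher with AP20187. In footprints the same ratio was -3.39, -3.99 and -4.69 with vehicle and -3.19, -2.99 and -3.46 with AP20187, and the groups overlapped. Relative to adipocyte genes it went from 1.22, 1.23 and 0.72 to 2.50, 1.87 and 2.84. Relative to pericyte and vessel muscle genes it was -1.68, -1.44 and -1.13 with vehicle and -1.11, -1.75 and -1.59 with AP20187, and the groups overlapped. Relative to luminal genes it went from -2.92, -3.04 and -2.33 to -4.57, -4.23 and -4.80. Against leukocyte genes in RNA it went from 0.11, -0.98 and 0.42 to -2.21, -1.86 and -2.18. No p is given for these sums, because the members were chosen with results known.

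In footprints the endothelial sum stood at 1053, 849 and 1161 CPM with vehicle and at 415, 563 and 278 CPM with AP20187, 41.0% of the vehicle mean. Among the AP20187 libraries number 2 was the highest and number 3 the lowest. The same order was seen in the fibroblast sum (3781, 4481 and 3055 CPM), the adipocyte sum (188, 385 and 109 CPM) and the pericyte and vessel muscle sum (883, 1452 and 792 CPM). Whether the mix of cells in each pellet set the spread of the 5 genes was not tested.

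Across the 6 RNA libraries the members followed one another with Pearson r of 0.858 (Vwf and Cdh5) to 0.986 (Cdh5 and Esam), values that largely carry the difference between the groups. After the group means were subtracted, r was 0.941 for Cdh5 and Esam, 0.764 for Vwf and Eng and 0.762 for Pecam1 and Eng, but 0.081 for Vwf and Cdh5 and -0.03 for Vwf and Esam. The points share library, depth and scaling, and 6 libraries in 2 groups allow no more than a description.

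The 8 genes whose RNA pattern was most like that of the members, by the mean of 5 Pearson r over the same 6 libraries among 6848 genes, were Ripk1 (0.969), Mfap5 (0.968), Tapt1 (0.968), Rabep1 (0.967), Papss2 (0.966), B4galt5 (0.965), Cxadr (0.965) and Ogt (0.965). After subtraction of the group means their mean r was 0.696 (B4galt5) to 0.749 (Ripk1). A lower RNA level with AP20187 follows from this choice, since the r values carry the group difference, and the RNA changes ranged from -0.45 in Ogt, an enzyme that attaches GlcNAc to proteins, to -2.53 in Papss2, an enzyme that makes the sulfate donor PAPS. Footprints are no independent check of this choice, since they were taken to come from the same cell pellets. In them 7 of the 8 were below 0, against a median of 0.03 over all genes. Of the 8, 1 was called, B4galt5 at -1.67 (edgeR adjusted p = 0.0398), where 1.6% of all tested genes were called lower. That call was lost without any single footprint library (up to 0.166). With the replicate number as a block B4galt5 passed, and Cxadr and Mfap5 also did (0.0033 and 0.00488). Ogt was at 1.03 there (0.393) and Ripk1 at -0.30 (0.807). Ripk1, a kinase of cell death and inflammatory signalling, went from 609 ± 159 to 238 ± 13.3 CPM, and Mfap5, a microfibril gene of stroma, from 22.6 ± 7.09 to 8.28 ± 0.52 CPM. The calls of Tapt1 and Ogt were lost without vehicle library 1 (adjusted p = 0.0552 and 0.107), vehicle library 3 (0.0699 and 0.128) or AP20187 library 1 (0.0541 and 0.0902), and that of Ogt also without AP20187 library 3 (0.0811).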

How the data were processed

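For 12 libraries the authors deposited unnormalized counts by gene symbol. The submitters' processing notes name the build mm10 and the tools HTSeq, STAR, Bowtie2, cutadapt and bcl2fastq (1.8.3). The role of each tool, the strand setting, the counted region and the choice of the 7318 genes were not given in the sources used here. Groups followed the sample titles. Counts were scaled with TMM within each assay after the filterByExpr rule and tested in R 4.3.3 by the edgeR 4.0.16 quasi-likelihood method, with treatment as the only term, Benjamini-Hochberg adjustment over all tested genes and a threshold of 0.05. SE was derived from the F statistic. DESeq2 1.42.0 and limma 3.58.1 were alternatives. Footprint to RNA ratios used a pseudocount of 0.5 CPM, and log2 CPM a prior count of 2. The procedure was tested on simulated counts that shared a single dispersion over all genes and both assays. These simulations were not matched to the spread of the libraries here.

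Same-numbered footprint libraries of both treatments correlated in their deviations from group means at 0.197, 0.269 and 0.38. Differently numbered ones gave -0.278 to 0.08, so the number may pair them. These values are small, genes are not independent points, and 3 libraries a group cannot settle it. The replicate block was therefore an alternative only. In RNA the values were 0.231, -0.045 and -0.068, with no such order. RNA and footprint libraries of the same treatment and number were taken as 1 pellet from the protocols' wording, and their deviations correlated at 0.053 to 0.519. Vehicle footprint library 1 correlated more with vehicle RNA library 2 (0.155) than with vehicle RNA library 1 (0.053).

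The members and gene lists were chosen with earlier results of these data known. Named genes were the 5 members, up to 5 per list with the highest vehicle RNA level, and the 8 with the most similar pattern over at least 5 CPM (no predicted genes, RIKEN clones or pseudogenes). Others are marked where they appear or were the members of a small count. A floor of 3 counts corresponded to at most 0.0323 CPM in RNA and 1.64 CPM in footprints, for counting error only, as the labels name no molecular identifiers. No 2 replicates held identical counts.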

Additional observations from a re-analysis of the deposited data

How the results depend on the processing

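In RNA, all 5 members kept a negative change in each of 13 alternatives (scaling, filter, DESeq2, limma voom, replicate block, and each library left out). All 5 passed in every alternative that kept all libraries, the replicate block included, and 2 to 5 passed when 1 library was left out. Footprint changes were negative in all alternatives, and 0 to 4 members passed with 1 library left out. With all libraries, the count of 2 went to 1 with library totals only, 5 with DESeq2 and 5 with the replicate block, and limma voom also called Eng (adjusted p = 0.0487). The replicate block changed no other call of the members, and for translational efficiency the block was the cell pellet. Translational efficiency called 0 members in any alternative, and with a pellet left out the change of Pecam1 ranged from -0.567 to 0.004 (without AP20187 pellet 3). The cause was not tested.

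Over all genes, RNA calls numbered 1919, and 538 to 2214 with a library left out. Footprint calls numbered 179, against 528 with DESeq2, 715 with the replicate block and 0 to 186 with a library left out. DESeq2 called 10 genes in translational efficiency, against 0 with edgeR. The log2 change of the members' sum ranged from -1.07 to -0.853 in RNA and from -1.56 to -1.06 in footprints with a library left out. Small RNA changes that turned when a library was left out were those of Klf4 (-0.303 to 0.067, the latter without vehicle library 1), Itgb3 (-0.442 to 0.045, without vehicle library 2) and Crip2 (-0.05, without AP20187 library 2, to 0.206). In footprints that of Rabep1 ranged from -1.259 to 0.044, the latter without vehicle library 3. Where a library was left out, the remaining 2 were assumed to vary like the other group. The footprint libraries, at 114 counts in the lowest value of a member, and 3 libraries a group limit what could be called.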
